A study of Oryctolagus cuniculus with 8 samples.

Results

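The genes described here are 9 transcription factors that build and maintain photoreceptors and bipolar cells, the light-sensing cells of the retina and the interneurons that relay their signal: CRX, OTX2, NRL, NR2E3, RORB, RXRG, NEUROD1, VSX1 and PRDM1. They were chosen by symbol. Of these, 7 were found in the deposited table of 25666 rows, 19293 of them protein-coding, and each found symbol had 1 row. NR2E3 and NEUROD1 were not analysed here, since no row carried these symbols. The table holds FPKM (fragments scaled to gene length in kilobases and to library depth) for 8 retinas of male wild-type Chinchilla rabbits of about 10 months, 2 retinas for each of 4 diets kept for 6 months. ND was standard chow alone. To this chow, HFD added 10% lard and 0.5% cholesterol and HSD added 40% sucrose. HFSD added lard and cholesterol in the amounts of HFD together with 35% sucrose. The labels do not say whether the retinas of a diet came from different animals. The p values below judge a difference against the spread between retinas of a diet, pooled over the 4 diets, which may not be the spread between animals. With 2 retinas in a group, every mean is open to a single retina.

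OTX2 is a homeobox factor that acts early in the choice of the photoreceptor fate and stays on in photoreceptors, bipolar cells and the pigment epithelium. It switches on CRX, the homeobox factor that drives most photoreceptor genes. NRL, a leucine zipper factor, commits a precursor to the rod fate, and in its absence precursors become cones. RORB, an orphan nuclear receptor, acts upstream of NRL and is also needed for cones. RXRG, a retinoid X receptor, is a cone factor that works together with the thyroid hormone receptor THRB to pattern the cone opsins. VSX1 is a homeobox factor of cone bipolar cells. PRDM1 is a zinc finger repressor that holds newborn photoreceptors away from the bipolar fate, and it also acts in lymphocytes. In whole retinas, fewer cells of a type and less RNA per cell cannot be told apart.

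The depth by which the FPKM values had been divided could be recovered from their steps, and ran from 15764577 to 22785832 fragments per library. The summed levels of the tissue markers placed all libraries as retina rich in rods, with 49890 to 65390 FPKM over the 21 measured rod genes. HFD replicate 1 stood apart. It was the highest of the 8 libraries for 22.4% of the 12204 genes tested and the lowest for 19.3%, against 8.66 to 13.4% in the other 7 libraries for either extreme. In the same library the 1650 genes with a recovered length of at least 5000 bases lay 0.17 below their mean of the 8 libraries (median, log2 of FPKM + 1), while in the others this median lay between -0.00055 and 0.059. HSD replicate 2 held 527 FPKM over 8 measured muscle genes, beside 54.3 to 97.1 in the other libraries. Pigment epithelium markers (12 of 12 measured) summed to between 254 and 338 FPKM in ND and to between 31.6 and 98.2 in the other diets. The sum of 10 Müller glia markers was between 2811 and 4040 FPKM without sucrose and between 2058 and 2204 with it. The part of these differences in the results below was not tested unless a value is given.

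The levels of the 7 factors kept nearly the same order in all retinas, on a scale that is per length and can therefore be compared between genes. NRL was the most abundant, with a lowest value of 2749, a median of 2917 and a highest of 3554 FPKM, and its mean ranked 10th among all protein-coding genes. CRX followed at 484, 546 and 772 FPKM (lowest, median, highest), at rank 95. OTX2 lay at 81.4, 93.7 and 104 FPKM and RORB at 50.4, 71.1 and 76.3 FPKM, so that their ranges did not overlap. VSX1, between 6.95 and 14.1 FPKM, and RXRG, between 6.78 and 15.2 FPKM, did not differ beyond their spread. VSX1 was the higher in 6 of 8 retinas. PRDM1 was the rarest, at 0.27 to 1.57 FPKM, and rested on 26 to 150 fragments per library, where NRL rested on 37511 to 60758.

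**Figure D1:**
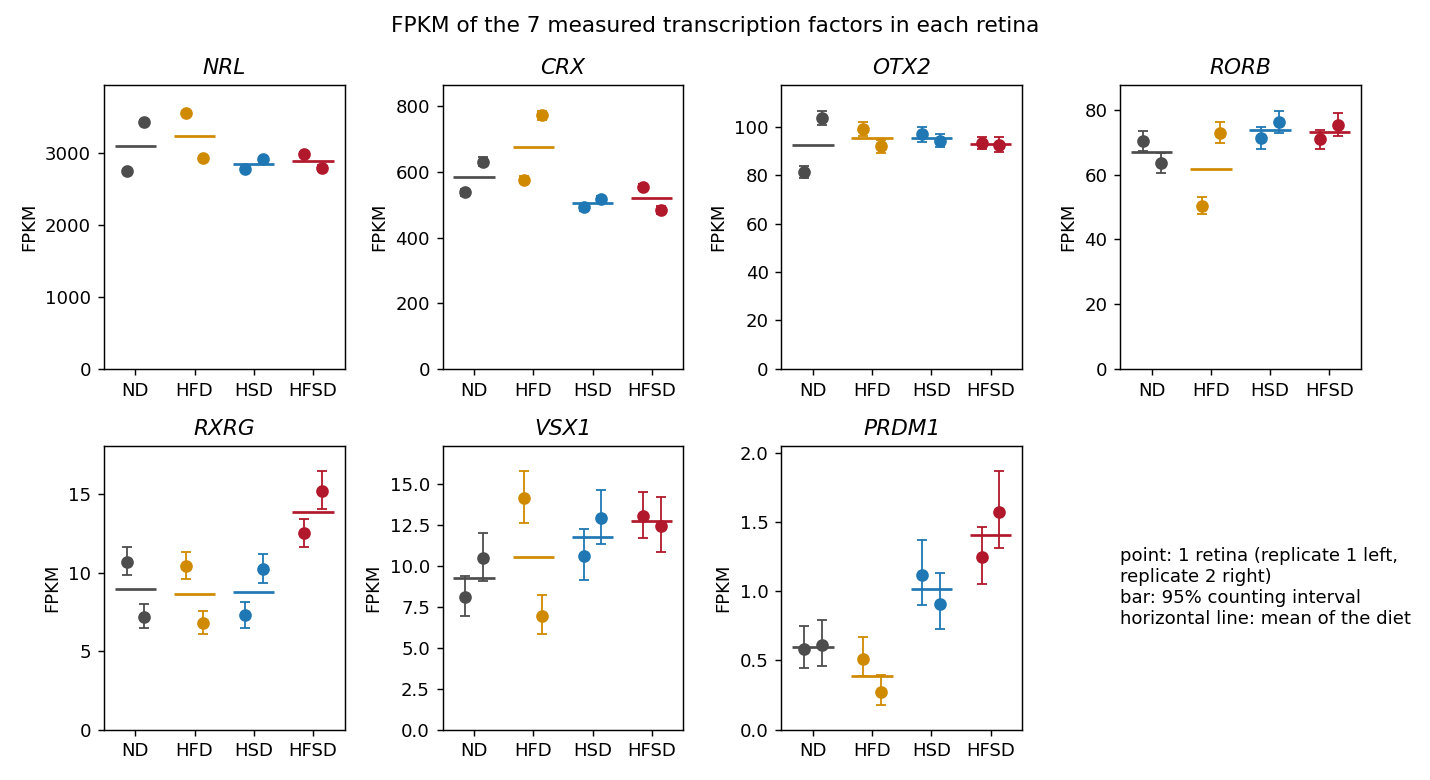
FPKM (vertical axes, from 0) of the 7 measured factors in each retina of the 4 diets. Points are retinas, bars are exact 95% Poisson intervals for the fragments counted, and horizontal lines are diet means. PRDM1 is higher in the 4 retinas with sucrose (0.91 to 1.57 FPKM) than in the 4 without (0.27 to 0.61 FPKM), while the ranges of the other 6 factors overlap between these 2 sets of diets.

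The factors also differed in how far they varied. The coefficient of variation over the 8 retinas was 6.87% for OTX2, 10.2% for NRL, 12.2% for RORB and 16.6% for CRX, against a median of 14.5% over all genes tested. It was 22.8% for VSX1, 29.1% for RXRG and 51.2% for PRDM1. The spread between retinas of the same diet was widest in HFD. There the retinas differed by a median of 0.42 (log2 of FPKM + 1) over the 7 factors and of 0.23 over all genes tested. In ND these medians were 0.32 and 0.19. In HSD and HFSD the factors differed by a median of 0.097 and 0.091, and all genes by 0.14 and 0.13. The 2 HFD retinas held 7 of the 14 extremes of the 7 factors: HFD replicate 1 was highest for NRL and VSX1 and lowest for RORB, and HFD replicate 2 was highest for CRX and lowest for RXRG, VSX1 and PRDM1. Over all genes tested, HFD replicate 1 was highest for 22.4% and lowest for 19.3%, and HFD replicate 2 for 11.9% and 13.2%.

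**Figure D2:**
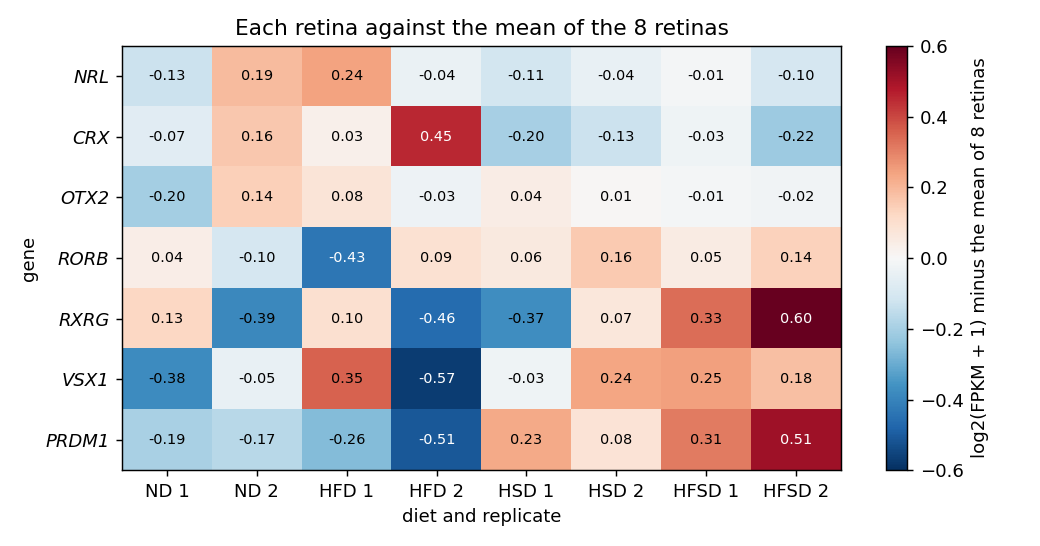
Level of each factor (rows) in each retina (columns, diet and replicate) as log2(FPKM + 1) minus its mean over the 8 retinas. HFD replicates 1 and 2 depart in opposite directions for RORB (-0.43 and 0.09) and VSX1 (0.35 and -0.57), and OTX2 stays within -0.20 and 0.14 in all retinas.

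No factor passed the test in any comparison. On log2(FPKM + 1), limma with Benjamini-Hochberg adjustment over all 12204 genes tested called 0 of 7 factors in HFD, HSD and HFSD against ND, where it called 0.00819%, 0.0574% and 0.0164% of all genes. It also called 0 of 7 between the sucrose diets and the diets without sucrose (0.344% of all genes), between the fat diets and the diets without fat (0.00819%), and in the interaction of fat and sucrose (0.00819%). At an unadjusted p under 0.05, PRDM1 was the 1 factor that passed in HFSD and with sucrose, where 8.07% and 18.3% of all genes did. There were 0 of 7 in HFD, HSD, the fat comparison and the interaction, beside 4.31%, 7.2%, 3.2% and 3.74% of all genes. The study selected genes by a fold of the diet means, each plus 1, above 1.54 or below 0.65. By this rule 0 of 7 factors passed in each diet, where the shares of all protein-coding genes that passed were 1.76% for HFD, 3.95% for HSD and 3.43% for HFSD. The 2 retinas of a diet lay beyond both ND retinas for 1 factor in HFD (PRDM1), 4 in HSD (CRX, RORB, VSX1 and PRDM1) and 4 in HFSD (RORB, RXRG, VSX1 and PRDM1), while over all genes tested this held for 25.9%, 39.0% and 42.3%. The 4 retinas with added fat were all above or all below the 4 without it for 0 of 7 factors and for 1.34% of all genes.

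**Figure D3:**
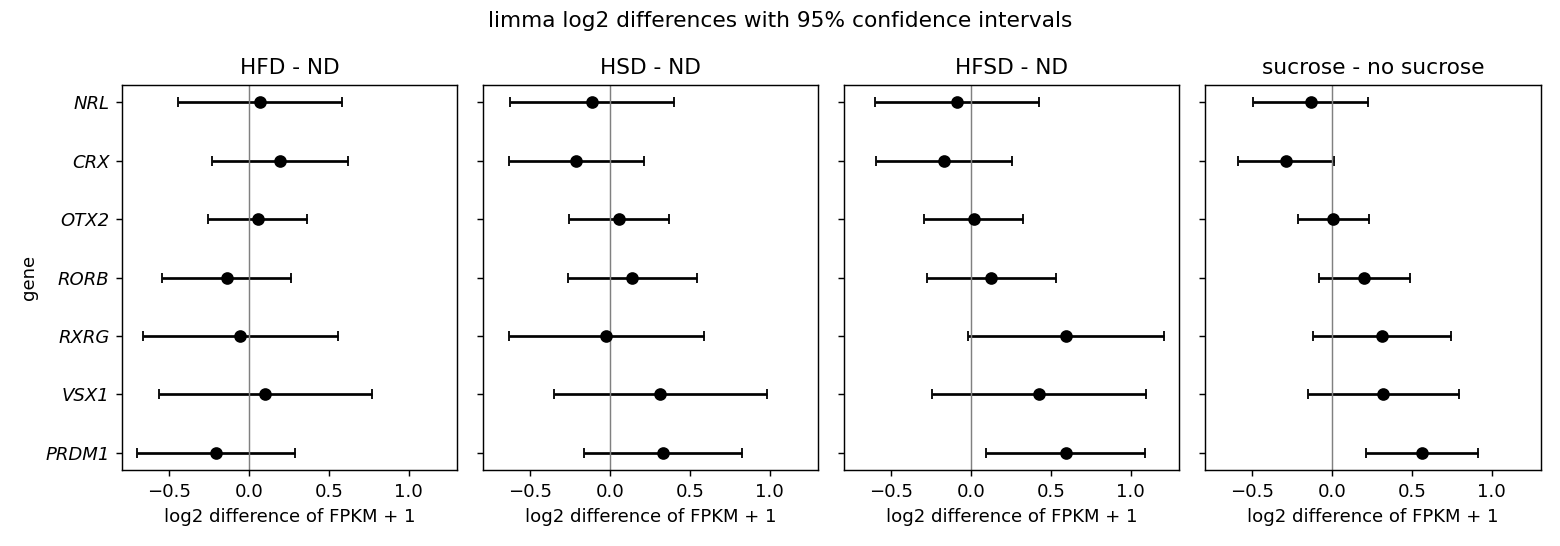
Differences in log2(FPKM + 1) (horizontal axes) for the 7 factors, with 95% confidence intervals from limma, for each diet against ND and for the sucrose diets against the diets without sucrose. The intervals include 0 for all factors except PRDM1 in HFSD (0.097 to 1.09) and with sucrose (0.21 to 0.91), which were not called after adjustment over all genes.

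PRDM1 was the factor with the largest difference between the sucrose diets and the diets without sucrose. The ND retinas held 0.58 and 0.61 FPKM, the HFD retinas 0.51 and 0.27, the HSD retinas 1.12 and 0.91, and the HFSD retinas 1.25 and 1.57. All 4 retinas with sucrose were above all 4 without, a separation found in 12.9% of all genes tested in either direction. These values rest on 457 fragments in the sucrose diets and 197 in the others. The mean was 1.21±0.277 FPKM with sucrose and 0.493±0.154 without (s.d., n=4 retinas in each), a ratio of 2.46. The log2 difference of FPKM + 1, which understates the change of so low a gene, was 0.56 (standard error 0.150, 95% interval 0.21 to 0.91, limma adjusted p=0.149). In HFSD against ND it was 0.59 (standard error 0.212, limma adjusted p=0.564) and in HSD it was 0.33 (limma adjusted p=0.776). PRDM1 entered the test through the sucrose diets alone, since the 3 libraries that reached the filter of 1 FPKM were all of HSD or HFSD. In the fit of all protein-coding genes, with no filter, the limma adjusted p with sucrose was 0.157. Weighted by the recovered fragments (limma's voom), the log2 difference was 1.34 with an adjusted p of 0.0911. The retinas with more PRDM1 held less of the Müller glia markers, as given above, and of the microglia markers: the 7 microglia markers summed to between 8.32 and 11.9 FPKM with sucrose and to between 13.4 and 23.0 without. The 6 horizontal cell markers summed to between 88.0 and 104 FPKM with sucrose and to between 76.7 and 86.1 without.

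RXRG, the cone factor, had its highest levels in the HFSD retinas, without passing the test. ND retinas measured 10.7 and 7.20 FPKM, HFD retinas 10.5 and 6.78, HSD retinas 7.28 and 10.2, and HFSD retinas 12.5 and 15.2. Both HFSD retinas were above the other 6, and the retinas of ND, HFD and HSD lay among each other. The share of all genes with this pattern was not counted, and 42.3% of all genes tested had both HFSD retinas beyond both ND retinas. The mean was 13.9±1.93 FPKM in HFSD and 8.94±2.47 in ND (s.d., n=2), a log2 difference of 0.60 (95% interval -0.016 to 1.21, limma adjusted p=0.625). It was 0.34 without ND replicate 2 and 0.85 without ND replicate 1. The interaction, which asks whether HFSD exceeded the sum of the separate fat and sucrose differences, was 0.67 with an interval from -0.20 to 1.54 (limma adjusted p=0.999), and ran from 0.39 (without HFD replicate 2) to 0.95 (without HFD replicate 1) when 1 retina was omitted. The fold of the means plus 1 was 1.495 in HFSD, just under the upper limit of the study, and was 1.545 with a pseudocount of 0.1. RXRG is listed as protein-coding in the deposited table, and RefSeq lists it as a noncoding RNA in the rabbit assembly mOryCun1.1.

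VSX1, the bipolar factor, stood at 8.09 and 10.4 FPKM in the retinas of ND, at 14.1 and 6.95 in those of HFD, at 10.6 and 12.9 in those of HSD, and at 13.0 and 12.4 in those of HFSD. The retinas of HSD and HFSD lay above both ND retinas, and the HFD retinas lay on either side of all of them. The log2 difference was 0.32 in HSD (95% interval -0.35 to 0.98) and 0.43 in HFSD (-0.24 to 1.095), with limma adjusted p values of 0.836 and 0.743. Without ND replicate 1 these differences were 0.15 and 0.26, and that of HSD was 0.19 without HSD replicate 2 and 0.48 without ND replicate 2. With sucrose it was 0.32, and it depended on which HFD retina was included: 0.55 without HFD replicate 1 and 0.089 without HFD replicate 2. VSX1 rested on 142 to 332 fragments. In HFD the exact 95% counting intervals of the retinas, 12.6 to 15.7 and 5.86 to 8.20 FPKM, did not overlap.

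CRX was lower with sucrose, on average, without passing the test. Its levels were 538 and 631 FPKM with ND, 576 and 772 with HFD, 491 and 516 with HSD, and 554 and 484 with HFSD. Both HSD retinas and HFSD replicate 2 were below both ND retinas, HFSD replicate 1 lay between these, and HFD replicate 2 was the highest of all. The mean was 511±31.2 FPKM with sucrose and 630±103 without (s.d., n=4). The log2 difference was -0.29 (95% interval -0.59 to 0.012, limma adjusted p=0.287). Without HFD replicate 2 it was -0.18, with an adjusted p of 0.320 from limma, and under quantile normalization it was -0.16. In HFD against ND the difference of 0.20 rested on this retina, and was -0.015 without it.

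NRL, the rod factor, reached 2749 and 3429 FPKM with ND, 3554 and 2921 with HFD, 2780 and 2913 with HSD, and 2978 and 2795 with HFSD. The ND and HFD retinas spanned the whole range, and the 4 retinas with sucrose lay within it, close together. NRL did not differ detectably between the diets. The log2 differences from ND were 0.070, -0.11 and -0.090 in HFD, HSD and HFSD, with a standard error of 0.219 and 95% intervals that reached from -0.62 to 0.58 in all. With sucrose the difference was -0.13 (interval -0.50 to 0.23, limma adjusted p=0.672), and it was -0.055 without ND replicate 2, -0.064 without HFD replicate 1, and -0.21 without either ND replicate 1 or HFD replicate 2. Under quantile normalization it was -0.063. The ratio of NRL to CRX, both in FPKM, was between 5.11 and 6.17 in 7 retinas and 3.78 in HFD replicate 2.

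OTX2 was the steadiest factor. The ND retinas, at 81.4 and 104 FPKM, were the lowest and the highest of the 8. The HFD retinas measured 99.1 and 91.9 FPKM, the HSD retinas 96.8 and 94.3, and the HFSD retinas 93.2 and 92.6. The difference with sucrose was 0.0089 on the log2 scale, with a 95% interval from -0.21 to 0.23 (limma). In HFD, HSD and HFSD it was 0.055, 0.056 and 0.016 (standard error 0.133), and a difference beyond 0.37 in either direction lay outside all 3 intervals. The OTX2 means of the 4 diets were between 92.5 and 95.5 FPKM, while the pigment epithelium markers, from a tissue that also uses OTX2, were lower in each other diet than in ND.

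RORB levels were 70.3 and 63.6 FPKM with ND, 50.4 and 73.0 with HFD, 71.3 and 76.3 with HSD, and 70.9 and 75.5 with HFSD. The 4 retinas with sucrose were above both ND retinas and lay on either side of HFD replicate 2, and HFD replicate 1 was far below the rest. The log2 difference with sucrose was 0.20 (95% interval -0.083 to 0.49, limma adjusted p=0.404), and it was 0.071 without HFD replicate 1 and 0.33 without HFD replicate 2. In HFD against ND it was -0.14, and 0.12 without that retina. The genes whose levels followed RORB most closely over the 8 retinas were AKAP9 and KIAA1109 (Pearson r=0.997 for each). AKAP9 was at 13.4 FPKM in HFD replicate 1 and between 25.3 and 44.3 FPKM elsewhere.

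The same measure of likeness, Pearson's r over log2(FPKM + 1) in 8 retinas, was taken for each factor with the 7626 named genes of at least 5 FPKM on average. With so many genes and 8 retinas high values arise for any gene, and they are given as a description. SAT1 (0.994) and GMEB2 (0.966) were closest to CRX, CA2 (0.9749) and POLR2C (0.945) to OTX2, and BCKDHB (0.998) and PRCC (0.976) to NRL. SPTSSB (0.955) and MSTN (0.930) were closest to RXRG, and PCGF6 (0.937) was among the 2 closest to VSX1 and CSNK1A1 (0.961) among the 2 closest to PRDM1. Among the factors themselves, OTX2 and NRL moved most alike (r=0.71), and NRL and RORB (r=-0.86) and CRX and PRDM1 (r=-0.82) moved most oppositely. Each of these values includes the HFD retinas, where the factors were most dispersed.

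Lists of genes around the factors were examined for the same diets, from general knowledge of their roles. Of 25 other factors that act in photoreceptors or their precursors, 18 were found and tested, and 11 were higher with sucrose and 7 lower (median log2 difference 0.072, against -0.0073 over all genes tested, of which 48.7% were higher). Without HFD replicate 1, 7 were higher. The nuclear receptor NR2F2, which patterns the dorsal retina, was the 1 of 18 called, where 0.344% of all genes were, and 8 of 18 had an unadjusted p under 0.05 in limma, where 18.3% of all genes did. NR2F2 fell from between 9.30 and 17.3 FPKM without sucrose to between 1.39 and 3.82 with it (log2 difference -2.13, standard error 0.243, limma adjusted p=0.0274). The call was lost without any 1 of HFD replicate 1, HFD replicate 2, HSD replicate 1, HSD replicate 2 or HFSD replicate 1. SALL3, a zinc finger factor of cones, was at 1.58 to 1.87 FPKM without sucrose and 2.71 to 3.36 with it, a difference of 0.59 that did not pass (limma adjusted p=0.0922). THRB, the partner of RXRG, measured 20.1 and 23.3 FPKM with ND, 18.3 and 16.2 with HFD, 27.3 and 25.3 with HSD, and 23.2 and 22.7 with HFSD, so that its higher values were in HSD while those of RXRG were in HFSD.

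Of 17 other bipolar factors, 12 were tested and 9 were higher with sucrose (median 0.17), with 0 called (0.344% of all genes) and 3 at an unadjusted p under 0.05 in limma (18.3% of all genes). FEZF2, a zinc finger factor of bipolar subtypes, was between 6.17 and 9.48 FPKM without sucrose and between 10.5 and 15.9 with it (log2 difference 0.69, limma adjusted p=0.102). Of 26 listed genes of bipolar cells themselves, such as receptors and channels, 24 were tested and were divided (10 higher, 14 lower, median -0.038). None of these was called, and 8 of 24 had an unadjusted p under 0.05 in limma, where 18.3% of all genes did. GRIK1, a kainate receptor subunit of OFF bipolar cells, was at 18.9 to 31.4 FPKM without sucrose and 39.1 to 45.3 with it (0.77, limma adjusted p=0.0808), and was called without ND replicate 1. KCNG4, a potassium channel subunit, went the other way at a similar adjusted p: it was between 8.44 and 15.6 FPKM without sucrose and between 4.50 and 10.4 with it (-0.62, limma adjusted p=0.0810), and these ranges overlapped. The lower values were those of HFSD (4.50 and 5.11 FPKM), while the HSD retinas, at 10.4 and 9.04 FPKM, overlapped the ND retinas, at 9.28 and 8.44 FPKM (log2 difference 0.12). The HFD retinas, at 12.2 and 15.6 FPKM, were above both ND retinas (log2 difference 0.59), so the difference with sucrose rested on HFD as well as HFSD. The interaction was -1.47 (limma adjusted p=0.479).

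The genes that these factors serve in rods and cones differed from each other in how they were placed. Of 30 listed rod genes, 21 were found and tested, and 8 were higher and 13 lower with sucrose (median -0.063). In limma 0 were called (0.344% of all genes) and 2 of 21 had an unadjusted p under 0.05, where 18.3% of all genes did. For both, RP1 and IMPG1, the retinas with and without sucrose did not overlap, as for 12.9% of all genes. RP1, a microtubule protein of the outer segment, was between 269 and 404 FPKM without sucrose and between 407 and 508 with it (log2 difference 0.44, limma adjusted p=0.235), and IMPG1, a proteoglycan of the matrix around photoreceptors, was between 427 and 548 FPKM without and between 566 and 609 with it (0.27, limma adjusted p=0.259). ESRRB, a nuclear receptor of rods, was at 104 and 157 FPKM in ND and at 98.6 and 88.9 in HFSD (log2 difference -0.44, limma adjusted p=0.622). Of 17 listed cone genes, 13 were found and tested. With sucrose 12 of the 13 were higher (median 0.44), and this number stayed at 12 whichever retina was omitted. At an unadjusted p under 0.05 in limma, 11 of those higher and the 1 lower gene passed, where 18.3% of all genes did. The lower gene was KCNV2, a potassium channel subunit of rods and cones (log2 difference -0.33, limma adjusted p=0.158), which is named here after its value was seen, and GNB3, a cone transducin subunit, was at 0.18 (limma adjusted p=0.420). The limma test with Benjamini-Hochberg adjustment called 2 of 13, where it called 0.344% of all genes. OPN1SW, the short-wavelength opsin, was between 67.6 and 114 FPKM without sucrose and between 209 and 290 with it (log2 difference 1.64, adjusted p=0.00980). PDE6C, the cone phosphodiesterase, was between 23.6 and 30.5 FPKM without and between 38.7 and 50.9 with it (0.71, adjusted p=0.0311). Without HSD replicate 2 neither was called, and PDE6C was also lost without either HFD or HFSD retina or HSD replicate 1. In HFD, 12 of the 13 cone genes were lower than in ND (median -0.18) and RXRG differed by -0.052. In HSD, 11 of the 13 were higher than in ND (median 0.41) and RXRG differed by -0.022. In HFSD, 12 were higher (median 0.25) and RXRG differed by 0.60. The 3 comparisons with ND share the same 2 ND retinas.

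**Figure D4:**
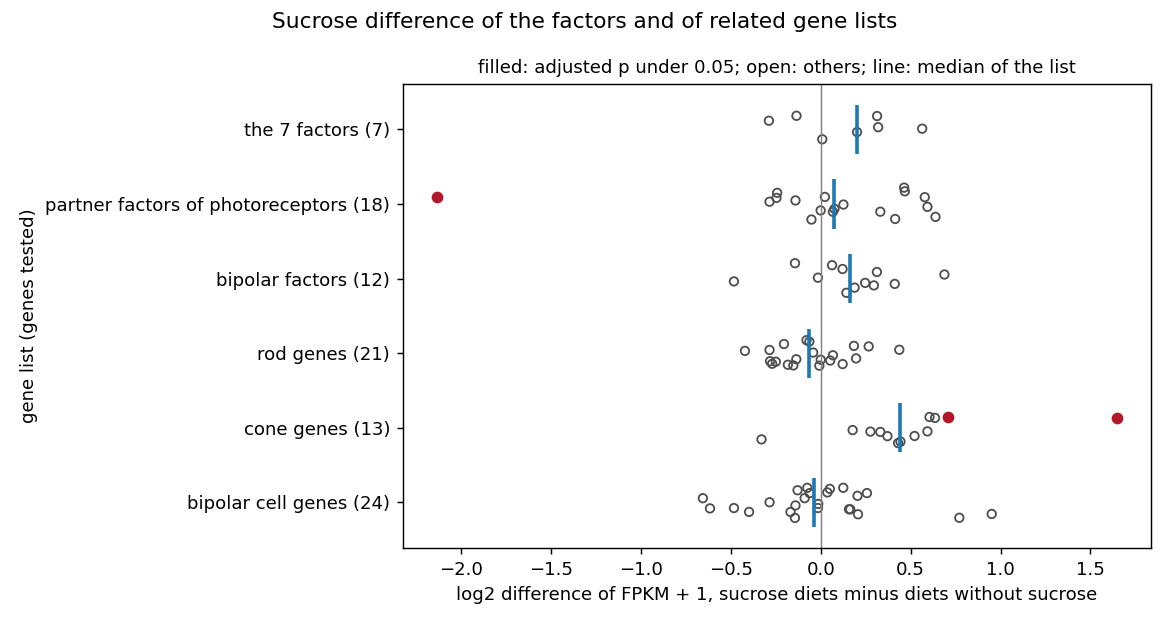
Differences in log2(FPKM + 1) between the sucrose diets and the diets without sucrose (horizontal axis) for the 7 factors and 5 lists of related genes (rows, with the number tested). Open points are genes not called, filled points have an adjusted p under 0.05, and vertical lines are medians. The cone genes lie to the right (median 0.44), the rod genes (-0.063) and bipolar cell genes (-0.038) lie around 0, and NR2F2 (-2.13) is the point furthest to the left.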

How the data were processed

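RNA of 8 retinas (2 per diet) was sequenced by the authors on a HiSeq instrument after TRIzol extraction and TruSeq library preparation. After a FastQC check and trimming of 5′ ends, the authors aligned reads with TopHat2 (2 mismatches at most), dropped those with several locations, and obtained the deposited FPKM values from an R script of their own. The genome build and annotation are not given in the sources used here, so no coordinates are printed. The file is named for counts, but its values are FPKM and not whole numbers. No value column was without a sample (0). RefSeq (assembly mOryCun1.1) was used for names only and matched 8 of the 9 symbols.

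Gene lengths and depths that turn the FPKM values into whole fragments (tolerance 0.01) were recovered from the steps of the values, for 100% of the rows above 0. Each gene's length was free in this step, so that share is partly set by construction. The depth of each library was chosen so that its commonest values would give whole lengths. Of these values 80.0 to 83.3% did, which is not a separate check of the depth. Intervals from fragments are exact Poisson intervals and cover counting error only.

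Protein-coding genes that reached 1 FPKM in 2 or more libraries entered limma 3.58.1 (R 4.3.3) as log2(FPKM + 1). The variance prior followed mean expression, in 1 model of 4 diets and 8 libraries, two-sided, with Benjamini-Hochberg adjustment over 12204 genes and a threshold of 0.05. The sucrose comparison is the mean of HSD and HFSD minus that of ND and HFD, and the fat comparison the mean of HFD and HFSD minus that of ND and HSD. The script was also tested on simulated data. The members, lists, comparisons and alternatives were chosen with earlier results of these data known. All found members are named, of the lists the genes called or the 2 with the smallest p per comparison, of which those of sucrose and those set beside a factor are printed, and for each factor the 2 genes of highest Pearson r. Some genes that this rule names are not reported here.

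Alternatives were pseudocounts of 0.1 and 0.5, no filter, a mean of at least 5 FPKM, median-of-ratios scaling, quantile normalization, no trend, voom on recovered fragments, a replicate block, the 4 libraries compared alone, and each library left out.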

Additional observations from a re-analysis of the deposited data

Results flagged for a closer look

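PRDM1 was lower in both HFD retinas (0.51 and 0.27 FPKM) than in both ND retinas (0.58 and 0.61). It was higher in both HFSD retinas (1.25 and 1.57) than in both HSD retinas (1.12 and 0.91). The order with fat alone was thus opposite to that with fat added to sucrose. Both HFD retinas lay beyond both ND retinas for 25.9% of all genes tested. The shares for HFSD beyond HSD and for opposite orders were not counted. The log2 ratio of the means plus 1 was 0.26 for HFSD over HSD. The interaction term of limma did not pass (0.46, standard error 0.299, limma adjusted p=0.999). With 26 to 150 fragments per library, the counting intervals of ND (0.44 to 0.75 and 0.46 to 0.79 FPKM) overlapped that of HFD replicate 1 (0.38 to 0.67) and not that of HFD replicate 2 (0.18 to 0.40). The interval of HFSD replicate 1 (1.05 to 1.46) overlapped those of HSD replicates 1 and 2 (0.90 to 1.37 and 0.73 to 1.13). That of HFSD replicate 2 (1.31 to 1.86) overlapped the interval of HSD replicate 1 and not that of HSD replicate 2.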

How the results depend on the processing

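None of the 7 factors was called under any of the alternatives in any of the 6 comparisons, the replicate block included (PRDM1 with sucrose 0.56, limma adjusted p=0.200). PRDM1 was left untested by the filter of 5 FPKM. With sucrose its difference ran from 0.50 to 1.34 over 16 alternatives, with a lowest adjusted p of 0.0867, and the replicate block took the calls over all genes with sucrose from 42 to 25. Over all alternatives those calls ran from 4 (without HSD replicate 2) to 82 (without ND replicate 1), against 1 to 13 in HFD, 2 to 17 in HSD, 0 to 11 in HFSD, 0 to 16 with fat and 0 to 18 for the interaction. The replicate numbers did not pair the retinas (r of replicate differences between diets from -0.165 to 0.0813). With a pseudocount of 0.1, the fold rule took 1 factor in HSD (PRDM1) and 2 in HFSD (RXRG and PRDM1), and with each retina left out 0 to 2 in HFSD: RXRG without ND replicate 1, and RXRG and PRDM1 without HFSD replicate 1.

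Signs of small differences changed, and the cause was not tested. Quantile normalization gave -0.0084 for OTX2 and -0.085 for NRL in HFD, -0.022 and -0.063 for them with fat, and interactions of 0.043 for NRL and -0.0078 for VSX1. Voom gave 0.018 for RXRG in HSD, -0.11 for PRDM1 with fat and -0.0096 for the interaction of VSX1, and the pseudocount of 0.1 gave -0.056 for PRDM1 with fat. With each retina left out, HFD differences ran from -0.015 to 0.41 (CRX), -0.12 to 0.23 (OTX2), -0.090 to 0.23 (NRL), -0.40 to 0.12 (RORB), -0.33 to 0.23 (RXRG) and -0.36 to 0.57 (VSX1). Those of HSD ran from -0.12 to 0.23 (OTX2), -0.27 to 0.050 (NRL) and -0.28 to 0.23 (RXRG), those of HFSD from -0.16 to 0.19 (OTX2) and -0.25 to 0.070 (NRL), and that of OTX2 with sucrose from -0.077 to 0.095. With fat they ran from -0.079 to 0.093 (OTX2), -0.035 to 0.12 (NRL), -0.21 to 0.056 (RORB), -0.12 to 0.34 (VSX1) and -0.036 to 0.090 (PRDM1). Interactions ran from -0.37 to 0.056 (CRX), -0.27 to 0.078 (OTX2), -0.21 to 0.11 (NRL), -0.14 to 0.39 (RORB) and -0.46 to 0.47 (VSX1).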
